A study of Mus musculus with 4 samples.

Results

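The RNAs described here are the sense-intronic and sense-overlapping long non-coding RNAs (lncRNAs) of mouse primary hepatocytes, that is, lncRNA genes annotated on the same strand as another gene, within one of its introns or across part of it. They were chosen by the gene class given in GENCODE M21 and by a mean of at least 1 FPKM (fragments per kilobase of transcript, scaled to library size) over the 4 samples, a threshold on level that uses the measured values and not the treatment. This rule kept 70 of the 37363 rows of the deposited tables, where a row is one transcript model of a gene. Rows with 1 group below 1 FPKM passed only through the other group, so in them the filter and the difference are not independent. Examples are control means of 0.945 for 1110028F11Rik, 0.891 for Gm19409 and 0.801 for Gm44091. In the other direction, NEAA means were 0.773 for Gm16310 and 0.876 for Gm28791. The 70 rows belonged to 69 genes, 68 of them sense-intronic with 1 row each and 1 of them sense-overlapping, BX649560.1, with 2 rows. In all the class had 389 rows of 356 genes, of which 98 rows were listed at 0 in all 4 samples and 221 were above 0 but below the threshold. Just inside the threshold were Gm43462 at a mean of 1.00 FPKM, Gm26971 at 1.01 and Gm43480 at 1.02, and just outside it were Gm43768 at 0.993, Gm3513 at 0.991 and Gm43138 at 0.985.

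The study sequenced total RNA of mouse primary hepatocytes, the cells that carry out most of the liver's metabolism, from libraries made for lncRNA sequencing. There were 2 control samples and 2 samples treated with NEAA, which are non-essential amino acids, those that animal cells can make. The title of the series names proline, glucose production by the liver and the retention of mRNA by paraspeckles. The sources used here do not give the strain, sex or age of the mice, nor the dose and duration of NEAA. Since the labels leave unsaid whether the samples of a group are separate animals or cultures, the p-values cover the spread among these 4 libraries alone, and that spread may be technical.

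Introns are transcribed with the rest of a gene and are usually cut out and degraded within the nucleus. Some intronic stretches give RNAs of their own, from a separate promoter or as processed pieces of the intron, as with most small nucleolar RNAs (snoRNAs) of mammals. An annotated sense-intronic lncRNA often rests on cDNA clones that map within an intron. Sequencing reads within such a model can come from an independent lncRNA or from the unspliced transcript of the gene around it, and the deposited values do not tell these apart.

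Summed over all rows, FPKM reached 73600 in control 1, 73380 in control 2, 65720 in NEAA 1 and 60940 in NEAA 2, and the ribosomal RNA-like pair Gm26917 and Gm42418 took 46.1% to 52.9% of them. FPKM are relative within a library, so that share bears on every value. The lncRNAs described here took 0.182% and 0.174% of the summed FPKM in the control samples and 0.206% and 0.226% in the NEAA samples. Their own sum was 134, 128, 135 and 138 FPKM in control 1, control 2, NEAA 1 and NEAA 2, which is the order used for 4 values in a row throughout. Of 26 hepatocyte markers 7 had rows and all 7 were above 0 in some sample, with sums of 26.4, 33.1, 66.7 and 65.9 FPKM that came mostly from Trf, the transferrin gene. Trf was at 22.5, 28.1, 57.1 and 55.8 FPKM, and no other hepatocyte marker exceeded 6.42 (Ahsg in NEAA 1). With Trf counted, other cells had lower sums. Endothelial markers summed to 6.45 to 9.30 FPKM (6 of the 8 with rows above 0, Clec4g and Vwf at 0), mostly from Egfl7 at 5.08 to 7.78. In the control samples Egfl7, at 7.78 and 5.55 FPKM, was above every hepatocyte marker except Trf. Stellate and fibroblast markers (6 of 6) summed to 1.98 to 3.12. Macrophage markers (2 of 2) summed to 0.530 to 1.69 FPKM, cholangiocyte markers (1 of 2; Cftr at 0) to at most 0.0118 and red blood cell markers (2 of 4; Hba-a2 and Hbb-bs at 0) to at most 0.0467. The part of the hepatocyte marker difference in the results below was not tested, and in bulk samples fewer cells of a type and less RNA per cell cannot be told apart.

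The depth behind the values was estimated from the low rows, which were enriched at a common step of FPKM times transcript length. Taken as 1 fragment, that step gave library sizes of 25.3, 27.9, 26.5 and 25.2 in units of 1000000 fragments. The step was searched for within a preset range, so library sizes far from these could not have been found. On this scale the 64 rows of lncRNA genes with a single annotated transcript held from 5 to 687 fragments in a sample, with a median of 61.6, and 14 of them averaged under 20. Since only 27.96% to 31.87% of the low rows were within 2% of a whole number of fragments, these are estimates and no count test was run.

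The sequences show what kind of model these rows measure. The first 7 below are the last 60 bases of the 7 models inside Magi3, the gene that holds the most of these lncRNAs, in the order in which the Magi3 transcript runs through them. The next 3 are the last 60 bases of models of other genes that the results turn on. For 1110028F11Rik, which has 2 transcripts and 2 rows, the longer transcript is shown, and the deposited values do not tie it to either row. They are from the GENCODE M21 transcripts (GRCm38), written 5′ to 3′, and capitals mark the poly(A) signal hexamers AATAAA or ATTAAA, on the transcript strand, that lay within the last 50 bases. In Peg13 a pair of AATAAA copies overlap.
Gm43256: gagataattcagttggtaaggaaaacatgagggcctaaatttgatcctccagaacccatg
Gm43260: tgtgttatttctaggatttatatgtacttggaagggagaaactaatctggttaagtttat
Gm43259: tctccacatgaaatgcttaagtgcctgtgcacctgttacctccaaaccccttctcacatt
C030032O16Rik: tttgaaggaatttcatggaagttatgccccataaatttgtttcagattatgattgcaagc
Gm43258: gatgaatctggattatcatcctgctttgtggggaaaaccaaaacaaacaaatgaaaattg
Gm42701: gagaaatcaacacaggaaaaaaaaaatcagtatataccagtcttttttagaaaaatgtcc
Gm42702: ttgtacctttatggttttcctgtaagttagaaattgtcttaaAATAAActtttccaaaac
1110028F11Rik: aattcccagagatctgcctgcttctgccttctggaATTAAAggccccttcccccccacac
Peg13: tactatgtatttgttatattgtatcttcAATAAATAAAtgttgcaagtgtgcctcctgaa
Gm17491: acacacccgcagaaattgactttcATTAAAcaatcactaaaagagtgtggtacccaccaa

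Of the 7 Magi3 models, 1 (Gm42702) had a poly(A) signal hexamer in that window, while all 3 of the other models shown had one. Over the 74 annotated transcripts of the 69 genes the hexamer was present in 21, or 28.4%. The share was 45.9% for the transcripts of lincRNA genes with a row of at least 1 FPKM, 42.3% for antisense genes, 49% for processed-transcript genes and 40.5% for all 14986 transcripts of those 3 lncRNA classes. The models were also rich in A and T: the median GC content was 41.7% over the 74 transcripts and 35.2% over the 7 Magi3 models, against 47.2% for the lincRNA transcripts. A hexamer match describes letters in a window of an annotated model and does not show where the RNA ends.

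The positions of the genes followed the class. Of the 69 genes, 68 lay wholly within a same-strand gene, 66 of them within a single intron of its longest coding transcript that spans them, and 38 of those in intron 1. The median distance to the nearest exon of that transcript was 2428 bases, and 64 of the 69 shared no base with an exon of another gene on their strand. Single-exon models made up 43 of the 69 genes (62.3%), compared with 18.5% of lincRNA genes, 24.2% of antisense genes and 4.35% of processed-transcript genes at the same level. Exonic length ran from 124 to 5083 bases with a median of 1657. The 69 genes lay in or across 55 partner genes, and 7 partner genes held 2 or more of them, 21 genes in all. Chromosome 3, which holds Magi3, Rap1a, Man1a2 and Capza1, carried 21 of the 69.

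Levels were low throughout. Mean FPKM over the 4 samples ran from 1.00 to 8.69 with a median of 1.52, 52 of the 70 rows were below 2 FPKM and 6 were at 3 or more. For comparison the median was 1.77 FPKM for the 170 lincRNA rows at or above the threshold, 1.62 for the 80 antisense rows and 2.16 for the 137 processed-transcript rows.

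NEAA and control were compared with limma on log2(FPKM + 1) over all 6064 rows with a mean of at least 1 FPKM. Differences are given as NEAA minus control on this log2 scale, with the standard error (SE) of the fit, and they understate the change of low rows. None of the 70 rows passed an adjusted p under 0.05 (Benjamini-Hochberg over the 6064 rows), where 176 rows or 2.9% of the table did, 118 higher (1.95%) and 58 lower (0.956%) in NEAA. The 176 calls dropped to 0 when any 1 of the 4 samples was left out, and the lncRNAs stayed at 0. At an unadjusted p under 0.05 there were 17 of 70 (24.3%), against 25.9% of all rows, so the lncRNAs were near the background of the table. The smallest adjusted p among them was 0.0534, for Gm43258.

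The differences were as often above as below 0, at 35 rows each (50%), whereas 41.1% of all rows were above 0. After quantile normalization 38 were above 0, and after rescaling without Gm26917 and Gm42418 there were 39. They ran from -0.68 to 1.27 with a median of 0.00, beside a median of -0.09 over all 6064 rows, and 35 rows differed by less than 0.2 in size. The samples of the groups did not overlap in 49 of the 70 rows (70%; all rows 58.8%), with NEAA higher in 27 (38.6%; all rows 22.8%) and lower in 22 (31.4%; all rows 36%). The 70% was near the shares of the other lncRNA classes: 67.1% of lincRNA, 67.5% of antisense and 66.4% of processed-transcript rows. The 7 rows inside Magi3, all among the 27, were among the 12 largest positive differences. Without them 28 of 63 rows were above 0, the median was -0.02 and the groups did not overlap in 42.

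**Figure D1:**
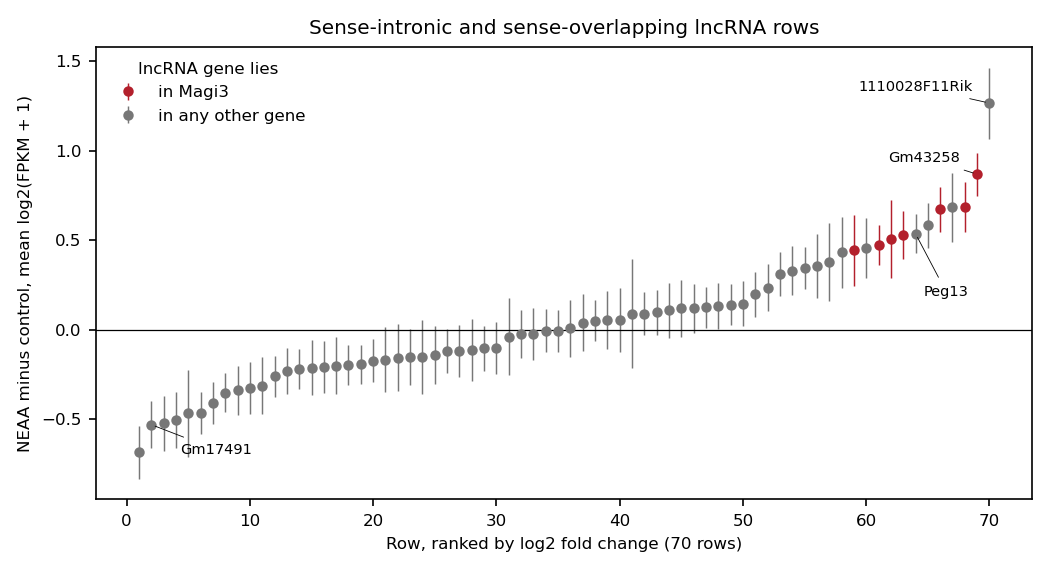
Differences between NEAA and control (NEAA minus control, mean log2(FPKM + 1), vertical axis) of the 70 sense-intronic and sense-overlapping lncRNA rows, ranked from lowest to highest (horizontal axis); each point is a row and the bar its standard error from limma, with 2 samples per group. The values run from -0.68 to 1.27, and the red points, rows in Magi3, lie at 0.44 to 0.87.

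The sizes of the differences were below those of the other lncRNA classes at the median. The median size was 0.203 for the 70 rows, 0.396 for lincRNA rows, 0.265 for antisense rows, 0.403 for processed-transcript rows and 0.292 for all rows. In the same fit 20 of 170 lincRNA rows, 11 of 80 antisense rows and 6 of 137 processed-transcript rows passed. These counts and medians are descriptions, and the difference between classes was not tested. The log2(FPKM + 1) scale understates the change of low rows. The median level was lowest for the 70 rows, at 1.52 FPKM against 1.62 to 2.16 for the other lncRNA classes. The part of level in the smaller sizes was not tested. With any 1 sample left out, 0 rows of each of these classes passed.

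A run of differences in 1 direction lay inside Magi3, which encodes a membrane-associated guanylate kinase scaffold of cell junctions and lies on the minus strand at chr3:104013259-104220374. It contains 7 lncRNA genes with rows at the level threshold, all in intron 1 of its 21 introns, a stretch of 113797 bases. Their starts lie 30.2 to 80.4 kb downstream of the start of Magi3. All 7 were higher in both NEAA samples than in both control samples (22.8% of all tested rows were), with differences of 0.44 to 0.87 and a median of 0.53. The 7 lie in 1 intron and would share the reads of any unspliced Magi3 transcript, so they are not independent. After rescaling without Gm26917 and Gm42418, which makes the pseudocount of 1 smaller beside the values, the differences were 0.83 to 1.43. None passed, with adjusted p of 0.0534 to 0.259 by limma. Summed over the 7 rows the level was 10.4 and 8.96 FPKM in the control samples and 17.7 and 19.1 in the NEAA samples.

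Gm43258 (ENSMUSG00000105846, chr3:104149756-104151705, minus strand, 1 exon of 1950 bases) was at 1.14 and 1.09 FPKM in the control samples and at 2.68 and 3.04 in the NEAA samples. Both NEAA samples were well above both control samples, and the samples within each group lay close together. Its difference was 0.87 (SE 0.119, adjusted p = 0.0534 by limma), from an estimated 56, 59, 139 and 150 fragments. It passed where the log2 values were quantile normalized (0.91, adjusted p = 0.0494 by limma). It also passed where the rows of each gene were summed before the fit (adjusted p = 0.0297 by limma), in which 475 of 4700 genes passed. The gene has 1 row, so summing left its difference unchanged, with an SE of 0.127. The model shares a stretch of at least 100 bases at 95% identity or more with 2 annotated genes elsewhere, so some of its fragments could belong to them.

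Gm43260 (ENSMUSG00000105933, chr3:104180612-104183041) was at 1.57 and 1.75 FPKM in the control samples and at 2.98 and 3.60 in the NEAA samples. The groups were well apart, and the difference was 0.68 (SE 0.138, adjusted p = 0.0873 by limma). Gm43259 (ENSMUSG00000106432, chr3:104163924-104167200) was at 1.71 and 1.45 FPKM in the control samples and at 3.02 and 3.19 in the NEAA samples, again without overlap. Its difference was 0.67 (SE 0.125, adjusted p = 0.0759 by limma). It passed in the fit of rows summed per gene (adjusted p = 0.0466 by limma), although with 1 row its difference was unchanged there, with an SE of 0.130. Gm43256 (ENSMUSG00000105818, chr3:104187103-104190193), the nearest of the 7 to the start of Magi3, was at 1.99 and 1.97 FPKM in the control samples and at 3.004 and 3.61 in the NEAA samples. Its control samples were nearly equal and below both NEAA samples, with a difference of 0.53 (SE 0.134, adjusted p = 0.120 by limma).

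The remaining 3 were smaller or more spread. Gm42702 was at 1.02, 0.928, 1.74 and 1.74 FPKM, with a difference of 0.47 (adjusted p = 0.108 by limma), and it too has near-identical stretches in 2 other annotated genes. C030032O16Rik was at 1.56, 0.948, 2.60 and 1.81 FPKM, so control 1 was close to NEAA 2. Gm42701 was at 1.45, 0.824, 1.68 and 2.08 FPKM, so control 1 was close to NEAA 1. Across the 7, control 1 and control 2 differed most in these last models, while Gm42702, Gm43256 and Gm43258 had near-equal control samples.

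Further rows of the class inside Magi3 fell below the level threshold and were not tested. They were 9530097N15Rik at 0.517, 0.509, 1.08 and 1.82 FPKM, Gm42696 at 0.277, 0.622, 0.838 and 0.929, Gm42700 at 0.340, 0.244, 0.486 and 0.784, and Gm42699 at 0.262, 0.410, 0.359 and 0.888. Their log2 differences were 0.26 to 0.68, and the groups overlapped in Gm42699 but not in the other 3. The 7 rows and these 4 were split by level, so higher means in the 7 follow from the threshold. By position, the 4 lay 104.7 to 162.2 kb from the start of Magi3, beyond all 7. The highest of the 4, 9530097N15Rik at 140.9 kb, had a mean of 0.980 FPKM, close to the threshold. In the plot of the rows within Magi3, the orange NEAA symbols lie above the blue control symbols at 10 of 11 positions. The positions lie in 1 gene and are not independent.

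**Figure D2:**
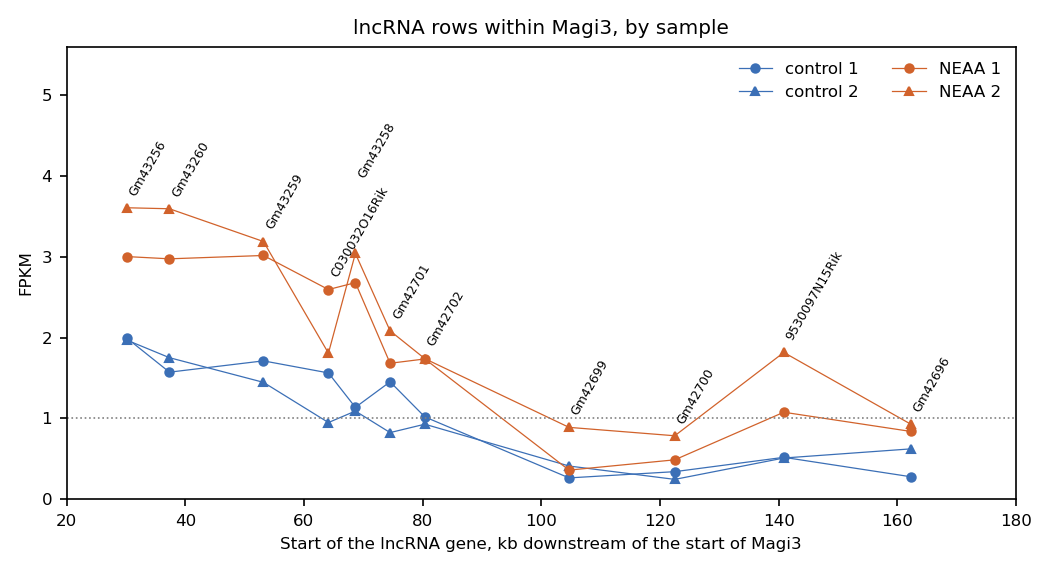
FPKM of the 11 lncRNA rows within Magi3 (vertical axis) in each of the 4 samples, against the distance of the lncRNA gene's start from the start of Magi3 in kb (horizontal axis); lines join the rows of a sample to guide the eye and the dotted line marks the level threshold of 1 FPKM. The 7 rows above the threshold have their starts 30.2 to 80.4 kb downstream, and in each of them both NEAA samples lie above both control samples, as in 22.8% of all tested rows.

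Magi3 itself had 1 row, below the threshold, at 0.725, 0.614, 0.905 and 1.04 FPKM. Its NEAA samples were also the higher ones, with an untested log2 difference of 0.24. Set against that row in each sample, the 7 lncRNA rows were higher by a further 0.20 to 0.63, and none of these differences from Magi3 passed (adjusted p = 0.154 to 0.584 by limma on the difference of log2 values). A difference of the lncRNAs from the Magi3 row was thus not detectable with these samples. Magi3 is 1 of the 38 partner genes, of 40 with rows, whose row number equalled that of their annotated retained-intron transcripts. Rows of these genes cannot be read as mRNA levels.

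Of the other genes that hold several of these lncRNAs, 4 are described here, and they showed smaller and mixed differences. Rap1a, a small GTPase of cell adhesion signalling, holds 4, which summed to 5.74, 5.55, 5.10 and 5.77 FPKM, with differences of -0.12 to 0.05. The sum of NEAA 1 lay below both control samples there and that of NEAA 2 just above both, so the groups overlapped. Zmiz1, a transcriptional coactivator, holds Gm47920 and Gm47921 with differences of 0.20 and 0.38, and their sums were 3.99, 3.50, 5.57 and 4.40 FPKM. The 2 rows in Man1a2, a mannosidase of the Golgi, differed by -0.31 and -0.17, and those in Capza1, an actin capping protein, by -0.20 and -0.11. None of these 10 rows passed (adjusted p of 0.301 or more by limma). Within each of Magi3, Zmiz1, Man1a2 and Capza1 the rows had the same sign, whereas Rap1a had 1 positive and 3 negative. These signs were the same under quantile normalization and after rescaling without Gm26917 and Gm42418, except that 2 and 3 of the Rap1a rows were then above 0. Rows of a gene share the reads of any unspliced transcript of it and are not independent.

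**Figure D3:**
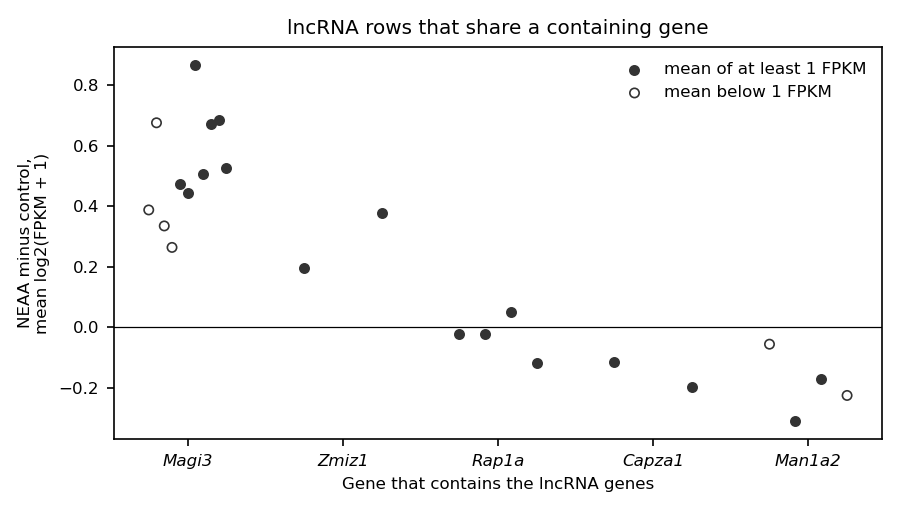
Differences between NEAA and control (mean log2(FPKM + 1), vertical axis) of lncRNA rows that share a containing gene (horizontal axis); filled points are 17 rows with a mean of at least 1 FPKM and open points rows below it, which were not tested. The points in Magi3 are all above 0, those in Man1a2 and Capza1 all below it.

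Outside Magi3, the largest difference belonged to 1110028F11Rik (ENSMUSG00000085972, chr11:87701396-87705331, plus strand), in intron 2 of Rnf43. Rnf43 encodes a ubiquitin ligase that removes Frizzled receptors of Wnt signalling from the cell surface. The lncRNA was at 1.03 and 0.864 FPKM in the control samples and at 2.995 and 4.46 in the NEAA samples, a ratio of means of 3.94. Both NEAA samples were far above the control samples but also differed from each other, and the difference was 1.27 (SE 0.198, adjusted p = 0.0628 by limma). It passed where both rows of the gene were summed (1.24, adjusted p = 0.0323 by limma), in a fit in which 475 of 4700 genes passed. The difference was 2.02 after the same rescaling as for Magi3. The other row was at 0.0978, 0.410, 0.455 and 0.624 FPKM. The Rnf43 row above the threshold was at 0.893, 0.984, 2.18 and 2.48 FPKM and differed by 0.78 (adjusted p = 0.0625 by limma). The lncRNA differed from the summed Rnf43 rows by 0.35 (adjusted p = 0.401 by limma). The lncRNA and these summed rows were both higher in the NEAA samples, and no difference between them was detectable.

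Peg13 (ENSMUSG00000106847, chr15:72805600-72810324, minus strand) is an imprinted lncRNA expressed from the paternal allele, within Trappc9, which encodes a subunit of a vesicle tethering complex. It lies in intron 17 of the 17 introns of the longest coding Trappc9 transcript that spans it. It was at 1.28 and 1.25 FPKM in the control samples and at 2.29 and 2.28 in the NEAA samples. The samples of each group were nearly identical, and the mean in NEAA was 1.81 times that in control. Its difference was 0.54 (SE 0.109, adjusted p = 0.0873 by limma), from an estimated 152, 164, 287 and 271 fragments. It was 0.81 at a pseudocount of 0.1 FPKM and 0.94 after rescaling. The Trappc9 row was at 2.05, 1.91, 2.24 and 2.52 FPKM, a difference of 0.18 (adjusted p = 0.415 by limma). The lncRNA minus the Trappc9 row was 0.36 (adjusted p = 0.295 by limma). With no allele-specific values, imprinting was not measured here.

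Gm19409 (ENSMUSG00000106229, chr5:30815620-30818477, plus strand) lies near the start of Mapre3, the gene of the microtubule end-binding protein EB3. It was at 0.788 and 0.995 FPKM in the control samples and at 1.78 and 1.88 in the NEAA samples, about as far apart as Peg13. The difference was 0.58 (SE 0.125, adjusted p = 0.0931 by limma), and 0.97 at a pseudocount of 0.1 FPKM and 1.12 after rescaling. The Mapre3 row above the threshold was at 1.07, 1.05, 2.02 and 2.37 FPKM, a difference of 0.63 (adjusted p = 0.0815 by limma). The lncRNA and this row were both higher in both NEAA samples. An exon of Gm15461 on the opposite strand covers 5.81% of Gm19409.

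Gm44091 (ENSMUSG00000107688, chr6:86976529-86977177, plus strand) lies in intron 16 of Aak1, a kinase of clathrin-mediated endocytosis. It was at 0.531 and 1.07 FPKM in the control samples and at 1.87 and 1.85 in the NEAA samples. The NEAA samples were nearly equal, while control 1 was at about a 1:2 ratio to control 2, and the estimated fragments were 9, 19, 32 and 30. The difference of 0.68 (SE 0.190, adjusted p = 0.136 by limma) therefore rests on few fragments, and it was 1.19 at a pseudocount of 0.1 FPKM and 1.36 after rescaling. The Aak1 rows, both below the threshold, summed to a difference of 0.27.

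On the lower side, BX649560.1 (ENSMUSG00000070461, chr2:180983924-180987275, plus strand) is the only sense-overlapping gene, and it overlaps the collagen gene Col20a1 on its strand, which was not analysed here. Its first row was at 3.53 and 3.65 FPKM in the control samples and at 1.61 and 2.14 in the NEAA samples. Both NEAA samples were below both control samples, and the difference was -0.68 (SE 0.148, adjusted p = 0.0939 by limma). The second row was at 1.59, 1.64, 0.646 and 1.01 FPKM, the same order of samples, with a difference of -0.52 (adjusted p = 0.147). The rows belong to one gene and may share reads.

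Gm17491 (ENSMUSG00000097042, chr8:22480291-22483332, plus strand) was among the 6 rows with the highest means, at 9.14 and 9.29 FPKM in control and 6.08 and 6.07 in NEAA. Its groups were tight and apart, on an estimated 354 to 598 fragments per sample, with a difference of -0.53 (SE 0.130, adjusted p = 0.113 by limma). It lies in intron 1 of Slc20a2, which encodes a phosphate importer, 3503 bases from its start. The first Slc20a2 row was instead higher in both NEAA samples, at 5.15, 6.37, 8.80 and 8.61 FPKM (difference 0.53, adjusted p = 0.151), and the second was level at 1.22, 1.08, 1.15 and 1.04. Relative to the summed Slc20a2 rows the lncRNA differed by -0.98 (SE 0.152, adjusted p = 0.110 by limma). That difference passed in a fit limited to rows with a mean of at least 5 FPKM, where 39 pairs remained (adjusted p = 0.0271).

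B930095G15Rik (ENSMUSG00000085133, chr14:121248706-121253971, plus strand), in intron 13 of the guanine exchange factor gene Farp1, was at 4.67, 4.60, 4.16 and 4.22 FPKM. Its NEAA samples were slightly below its control samples. It differed by -0.12 (adjusted p = 0.578), as did the Farp1 row to 2 decimals, which was at 2.69, 2.94, 2.49 and 2.53 FPKM. The lncRNA's difference was -0.01 after quantile normalization and -0.04 after rescaling.

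Gm17024 (ENSMUSG00000090582, chr12:40209487-40211073, minus strand) lies in intron 8 of Ifrd1, a transcriptional coregulator. It was at 4.58 and 4.82 FPKM in control and at 4.32 and 3.58 in NEAA, so the groups were apart by less than the spread of the NEAA samples. The difference was -0.21 (adjusted p = 0.426), beside -0.46 for the summed Ifrd1 rows. It was -0.10 without NEAA 2, -0.32 without NEAA 1 and -0.11 after quantile normalization. Gm42664 (ENSMUSG00000106099, chr3:119743208-119746446, minus strand) lies in intron 7 of Ptbp2, a repressor of alternative exons. It was at 3.65 and 3.69 FPKM in control and at 2.37 and 2.40 in NEAA, tight in both groups, with a difference of -0.46 (SE 0.116, adjusted p = 0.117 by limma). Of the Ptbp2 rows, the first was at 2.44, 2.59, 1.02 and 1.11 FPKM (adjusted p = 0.0578 by limma) and the third at 3.62, 3.68, 2.50 and 2.82. These rows and the lncRNA were all lower in the NEAA samples. The lncRNA differed from the summed rows by 0.14 (adjusted p = 0.626).

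Gm12238 (ENSMUSG00000087342, chr11:55482706-55482829, plus strand) is the shortest of the models. Its 124 bases lie within the snoRNA gene Gm22884 (chr11:55482694-55482833), in intron 1 of the stress granule gene G3bp1, which was not analysed here. Its whole annotated sequence is shown because this model ends as box H/ACA snoRNAs do. The annotated snoRNA ends at 55482833, beyond the model's end at 55482829, so this position of the ACA holds for the model and not for Gm22884 as annotated. Capitals mark the ACA that stands 3 bases before the 3′ end of the model.
Gm12238: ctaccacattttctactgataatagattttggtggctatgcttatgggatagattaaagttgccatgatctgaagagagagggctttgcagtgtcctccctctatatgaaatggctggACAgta

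That ending was found in 1 of the 74 transcripts, in 18.3% of the 1507 annotated snoRNA transcripts and in 2.38% of the lncRNA transcripts. The row was at 5.53, 4.39, 4.68 and 5.69 FPKM. High and low samples occurred in both groups, and the difference was 0.06 (adjusted p = 0.864 by limma). Its sign turned with the sample left out, at -0.08 without control 2, -0.06 without NEAA 2, 0.19 without control 1 and 0.17 without NEAA 1, and it was 0.16 after quantile normalization and 0.17 after rescaling. Fragments of the snoRNA and of the intron around it cannot be told apart in this row. Another short model, Gm28967 (chr6:125186361-125186641), lies within the small Cajal body RNA gene Scarna10 in intron 4 of Ncapd2, a condensin subunit, and was at 1.30, 1.68, 2.03 and 2.21 FPKM.

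The same-strand gene around each lncRNA could be set beside it for 50 of the 69 genes, while the partners of the other 19 were not analysed here. The partner genes are mostly protein-coding, but in 38 of the 40 with rows the number of rows equalled the number of retained-intron transcripts annotated for the gene, so these rows cannot be read as mRNA levels. Of 105 partner rows 53 passed the level threshold and 0 were called by limma, with 26 above 0 and a median of -0.02. Fitted as the difference between each lncRNA and its summed partner rows, along with all other rows nested in this way (311 in total), 0 of the 50 passed, where 1 of the 311 did (0.322%). At an unadjusted p under 0.05 there were 5 of 50 (10%) against 16.7% of the 311. The sign was the same in lncRNA and partner for 33 pairs and opposite for 17, and the median size of the difference between them was 0.229. Of the 33, 7 are the Magi3 rows, which share 1 partner value and are not independent. The share of equal signs over the 311 was not worked out, so the 33 have no background beside them.

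**Figure D4:**
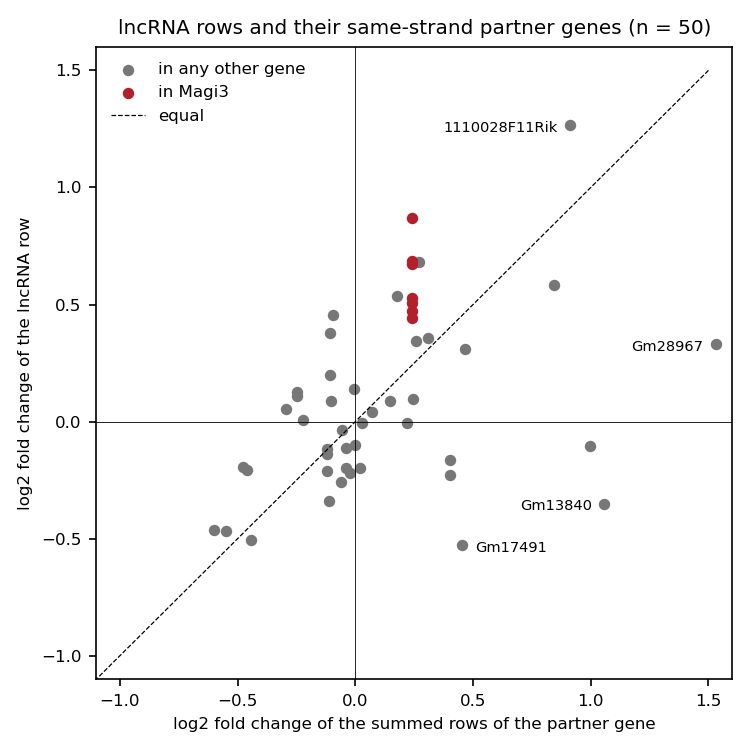
Difference between NEAA and control (mean log2(FPKM + 1)) of 50 lncRNA rows (vertical axis) against that of the summed rows of the same-strand partner gene (horizontal axis); points on the dashed line have equal differences, and red points are the 7 rows in Magi3, which share 1 partner value of 0.24. Of the 50 points, 33 lie in the quadrants of equal sign, 7 of them the Magi3 rows. Gm13840 and Gm28967 lie farthest below the line.

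The widest gaps, named after their values were seen, lay below the line of equal differences. Gm13840 in Pxn, the gene of the focal adhesion protein paxillin, had the widest at -1.41, but it rests on 1 Pxn row at 0.851, 15.3, 18.0 and 18.8 FPKM, in which control 1 stood apart from the other 3 samples, and the adjusted p was 0.312. Gm28967 differed from the summed Ncapd2 rows by -1.20 (adjusted p = 0.128), and 1 of those rows was at 0.0415, 0.168, 0.344 and 3.81 FPKM. On the other side, the widest positive gap was that of Gm43258 from Magi3, 0.63.

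The 55 rows outside the 10 largest differences and 6 highest means, a few of them given above, had differences of -0.52 to 0.51, means of 1.00 to 2.67 FPKM and adjusted p of 0.108 or more by limma. Stretches nearly identical to another annotated gene (at least 95% over at least 100 bases) were found in 7 of the 69 genes, most often in Gm38190 with 62 such genes and Gm20274 with 29, so their rows may share reads with those genes. An exon on the opposite strand overlapped 4 of the 69 genes, to 60.7% in Gm47644, which lies across the cardiac gene Pln; the labels do not state that counting used the strand, so reads of such partners cannot be told apart.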

How the data were processed

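Per the labels' protocols, Trizol was used to extract total RNA and the NEBNext Ultra RNA kit to prepare the libraries. The builds GRCm38 and mm10 are named, per the submitters' processing notes. The sources used here name no aligner, quantifier, annotation or strand setting. The authors deposited FPKM per transcript model, one table per sample, without transcript identifiers. Gene classes, coordinates (1-based, GRCm38) and transcript sequences came from GENCODE M21, joined by gene identifier.

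Samples were grouped by their treatment label. Rows with a mean of at least 1 FPKM were fitted as log2(FPKM + 1) with limma 3.58.1 in R 4.3.3 (lmFit, eBayes with a mean trend, 2-sided tests, Benjamini-Hochberg over 6064 rows, called at adjusted p under 0.05). Since 2 samples a group give an exact permutation test no p under 0.333, the fit pools the spread over rows. The partner is the smallest same-strand gene that contains the lncRNA gene, else the one with the longest overlap, protein-coding genes first. The difference of log2 values between a row and the summed rows of its partner was fitted in the same way over 311 nested rows. Near-identical stretches were found with BLAST 2.17.0 among the annotated transcripts. Estimated fragments are FPKM times length over the commonest step of the low rows within a preset range, and intervals were not derived from them. The scripts were tested on simulated data.

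The lncRNAs, the lists and the tests were chosen with earlier results of these data known. The rows described one by one are the 10 with the largest difference in size whose groups do not overlap, the 6 with the highest mean, and their partner genes; 1 of the 6 and 2 partner genes with several lncRNAs are not reported here. Alternatives were other pseudocounts (0.1 and 0.5 FPKM), no level filter and one of 5 FPKM, quantile normalization, rescaling to 1000000 FPKM without Gm26917 and Gm42418, no variance trend, the replicate number as a block, each sample left out, rows summed per gene, and the partner's highest row.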

Additional observations from a re-analysis of the deposited data

How the results depend on the processing

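The count of 0 called lncRNA rows held under all alternatives except quantile normalization, with 1 (Gm43258), and rows summed per gene, with 3 (1110028F11Rik, Gm43258 and Gm43259; 475 of 4700 genes were called there). Against the partner gene the count was 0 except 1 (Gm17491) at a filter of 5 FPKM. Over the whole table the count went from 176 to 0 with no level filter, 100 at a filter of 5 FPKM, 117 after rescaling without Gm26917 and Gm42418, and 0 to 0 with each sample left out. For lincRNA, antisense and processed-transcript rows together it went from 37 to 23 at a pseudocount of 0.1, 0 with no filter, 18 at 5 FPKM, 21 after rescaling, and 0 to 0 with each sample left out. Higher and lower calls over the table split 118 to 58, but 46 to 54 at 5 FPKM and 86 to 31 after rescaling; the cause was not tested. With the replicate number as a block 0 rows of the table, 0 of the other lncRNA classes and 0 of the lncRNAs described here were called; the deviations of same-numbered samples correlated at -0.0019 over all rows and 0.160 over the lncRNAs described here, and no label ties the numbers to an animal or day, so they were not taken as pairs. Rows in Magi3 stayed above 0 in every alternative that kept them, the lowest at 0.23 without control 2. Of 168 checks of the 15 rows with the largest differences or highest means, 166 kept their sign. Where all 70 lncRNA rows were fitted, 61 (without NEAA 1) to 70 kept theirs. With 2 samples a group and many rows on few fragments, modest differences are beyond what these data can resolve.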
